A study of Mus musculus with 21 samples.

Results

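The 8 genes described here are Gpr124, Reck, Fzd4, Tspan12, Fzd6, Lrp5, Lrp6 and Ctnnb1, which encode the receptor side of canonical Wnt signalling in brain endothelium. They were taken by name from the 24206 uniquely named genes of the deposited expression table, and all 8 passed the filter on low values in both experiments of the study. Wnt7a and Wnt7b, secreted by neural cells, act on brain endothelial cells through a complex in which RECK, a membrane-anchored glycoprotein, binds the ligand and GPR124, an adhesion G protein-coupled receptor, brings it to a Frizzled receptor and the co-receptors LRP5 and LRP6. Norrin acts in parallel on FZD4, LRP5 or LRP6 and the tetraspanin TSPAN12. Both inputs spare beta-catenin, the product of Ctnnb1, from degradation and let it drive transcription with TCF and LEF factors, and this signal is known for building and keeping the blood-brain barrier.

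RNA was measured in brain endothelial cells of C57BL/6 adults, 12 to 20 weeks old, which had been sorted for being live, negative for CD45 and PDGFRb, and positive for CD31. In the stroke experiment, Cko mice carried Gpr124 flox/- with ROSA-CreER, and the mice called WT carried Gpr124 flox/+ with the same ROSA-CreER, so the WT group also had a floxed allele and Cre. All these mice had 1 h of middle cerebral artery occlusion and 1 d of reperfusion. The groups were Cko-ST and WT-ST from the stroke hemisphere and Cko-NS and WT-NS from the non-stroke hemisphere, with 4 libraries each. In the second experiment, 3 Bcat libraries came from Ctnnb1 lox(ex3)/+ mice with Cdh5-CreER and 2 Bcat-WT libraries, labelled WT-01 and WT-02, from Ctnnb1 +/+ mice with the same Cdh5-CreER, all under normal conditions. ROSA-CreER is not limited to endothelium, whereas the Cdh5 promoter drives CreER in endothelial cells. The labels do not say how Cre was induced, which Gpr124 exons are floxed, or whether each library came from its own animal, so the p-values measure the spread between these libraries, which may be technical.

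The Bcat allele concerns a member directly. Exon 3 of Ctnnb1, which the lox(ex3) allele flanks, is shown because its codons include the phosphorylated residues through which beta-catenin is sent for degradation. It lies at chr9:120950522-120950749 on the plus strand of GRCm38 and is exon 3 of 15 in the first listed GENCODE transcript. Its 228 bases are a whole number of codons, so its removal keeps the reading frame. Capitals mark the codons of serine 33, serine 37, threonine 41 and serine 45, of which serine 45 is phosphorylated first by casein kinase 1 and the other sites then by GSK3.
Ctnnb1 exon 3: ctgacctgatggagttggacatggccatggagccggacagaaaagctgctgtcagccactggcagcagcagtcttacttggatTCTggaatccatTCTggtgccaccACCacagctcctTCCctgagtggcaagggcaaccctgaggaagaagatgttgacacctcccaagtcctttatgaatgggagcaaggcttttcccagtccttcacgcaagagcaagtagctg

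Depth, recovered from the steps between the deposited values, was 4.71 to 19.6 M reads in the stroke libraries and 6.12 to 15.0 M in the Bcat experiment. By group it was 11.5 to 19.6 M in Cko-ST, 6.54 to 19.2 M in WT-ST, 7.21 to 11.5 M in Cko-NS and 4.71 to 14.5 M in WT-NS. Cko-ST was thus the deepest group on average, and the part of depth in the results was not tested. The stroke libraries were made from the 3' ends of poly-A RNA, and the Bcat libraries from total RNA with another kit, so levels were not compared between the experiments. The 12 endothelial markers had summed levels of 4363 to 6736 RPKM in Cko-ST, 3990 to 6017 RPKM in WT-ST, 6244 to 10475 RPKM in Cko-NS and 6377 to 6927 RPKM in WT-NS. Red cell and platelet markers exceeded the endothelial sum in some stroke libraries and in all libraries of the Bcat experiment. Pdgfrb, which encodes the receptor used to sort out mural cells, did not exceed 0.716 RPKM in the stroke libraries. In 2 libraries, Cko-NS 4 (labelled female) and Cko-ST 3 (labelled male), X- and Y-linked transcripts went against the labelled gender. Cko-NS 4 and Cko-ST 4 were the only stroke libraries with Y-linked RNA at a male level, and results that change without the 2 discordant libraries are given both ways.

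The order of the 8 levels was much the same in the 4 stroke groups. Values are RPKM, read counts scaled to gene length and library depth. Ctnnb1 was the highest member and stood at the 99.9th percentile of all genes on average, with group means between 1689 and 2269 RPKM. Reck, Tspan12, Fzd4 and Fzd6 followed, with group means between 11.9 and 80.3 RPKM, then Lrp6 between 9.35 and 15.4 RPKM. Gpr124 and Lrp5 were the lowest, with group means of 1.37 to 4.99 and 0.763 to 2.12 RPKM. In every stroke group, all libraries had more Ctnnb1 than any other member and more Lrp6 than Gpr124. Reck and Tspan12 overlapped in WT-ST, Cko-NS and WT-NS, Fzd6 and Lrp6 overlapped in Cko-ST, WT-ST and WT-NS, and Gpr124 and Lrp5 overlapped in Cko-ST and Cko-NS. Tags from 3' ends divided by the whole gene length do not measure levels between genes well, so this order describes the deposited values only.

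Gpr124, the targeted gene, was detected in all 16 stroke libraries, with lower means in the Cko groups. It had 0.500, 1.72, 1.72 and 1.52 RPKM in the 4 Cko-ST libraries, against 8.12, 5.94, 2.92 and 2.98 RPKM in WT-ST. It had 2.03, 0.994, 3.15 and 4.85 RPKM in Cko-NS, against 3.01, 7.58, 4.74 and 2.65 RPKM in WT-NS. The Cko-ST and WT-ST libraries did not overlap, whereas the Cko-NS and WT-NS libraries did. The Cko-ST mean was 27.4% of the WT-ST mean, and the Cko-NS mean was 61.4% of the WT-NS mean. On the log2(RPKM + 1) scale used for all tests, which understates the change of low genes, the differences were -1.28 ± 0.39 in the stroke hemisphere and -0.57 ± 0.39 in the non-stroke hemisphere (difference ± SE). Neither passed the threshold of 0.05 over the 9838 genes tested (limma adjusted p = 0.764 and 0.533). The mean of both hemispheres was -0.93 ± 0.28 (limma adjusted p = 0.179), with every library counted as independent. If both hemispheres came from the same mice, that SE could be too small. The smallest number of reads behind a value was about 38.1, with a counting error of 16.2%, and the largest was 864. The floxed exons are not given and the tags come from the 3' end, so RNA without those exons could still be counted. These levels therefore do not check the genotype labels. The gene lies on chromosome 8 from 27085583 to 27123436 (GRCm38, plus strand, current symbol Adgra2), and 73 bases of its exons are shared with Brf2 on the opposite strand, which had at most 3.39 RPKM, in Cko-ST 1. Whether strand was used in counting is not given in the sources used here. Between the hemispheres, Gpr124 differed by -0.60 ± 0.39 in Cko and 0.11 ± 0.39 in WT, neither past the threshold.

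**Figure D1:**
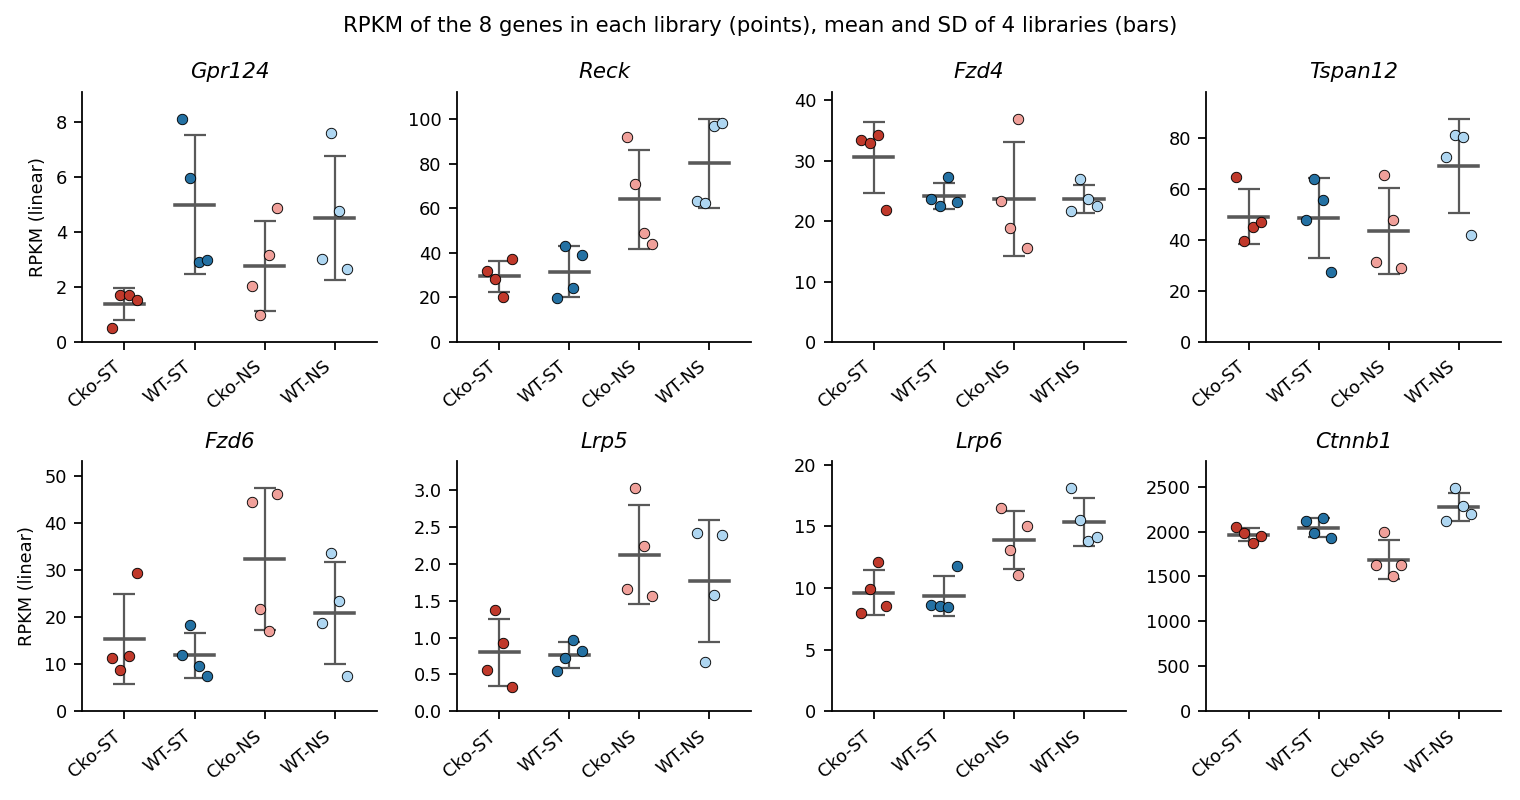
RPKM of each of the 8 genes (linear axis from 0) in the Cko-ST, WT-ST, Cko-NS and WT-NS groups, 4 libraries each; points are libraries, wide bars the mean and error bars the SD. Reck lies lower in both stroke-hemisphere groups, between 19.9 and 43.2 RPKM, than in both non-stroke groups, between 44.0 and 98.5 RPKM, and Gpr124 lies at or below 1.72 RPKM in Cko-ST.

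Reck, the partner of Gpr124 in Wnt7 signalling and also an inhibitor of matrix metalloproteinases, fell in the stroke hemisphere of both genotypes. It had 31.9, 28.3, 20.3 and 37.1 RPKM in Cko-ST, against 92.2, 70.9, 49.0 and 44.0 RPKM in Cko-NS. In WT-ST it had 19.9, 43.2, 24.0 and 39.2 RPKM, against 63.3, 62.5, 96.9 and 98.5 RPKM in WT-NS. Every stroke-hemisphere library was below every non-stroke library, across genotypes as well as within them. The Cko-ST mean was 45.9% of the Cko-NS mean, and the WT-ST mean was 39.3% of the WT-NS mean. The log2 differences were -1.07 ± 0.28 in Cko (limma adjusted p = 0.0167), -1.35 ± 0.28 in WT (limma adjusted p = 0.00351) and -1.21 ± 0.20 over both genotypes (limma adjusted p = 2.14e-04). The 2 stroke effects differed by 0.29 ± 0.40 (limma adjusted p = 0.916), with a 95% confidence interval of -0.56 to 1.13. Between genotypes, Reck differed by -0.06 ± 0.28 in the stroke hemisphere and by -0.35 ± 0.28 in the non-stroke hemisphere, neither past the threshold. Without Cko-NS 1, the highest Cko-NS library, the Cko result was not called (-0.87, limma adjusted p = 0.0580). With labelled gender as a covariate it was not called either (limma adjusted p = 0.0884). Among the stroke libraries only Cko-ST 3 and Cko-ST 4 were labelled male, and the RNA of Cko-ST 3 went against its label. That covariate therefore splits the Cko-ST group and does not adjust for sex. In bulk RNA, fewer cells that carry a transcript and less of it per cell cannot be told apart, here and in the results that follow. Reck lies on chromosome 4 from 43875530 to 43944806 (GRCm38, plus strand).

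Some markers of other cells were also called between the hemispheres, while most of their sums overlapped. The 9 mural cell markers summed to 15.5 to 102 RPKM in Cko-ST and 23.3 to 33.3 RPKM in Cko-NS, and to 12.2 to 48.9 RPKM in WT-ST and 50.5 to 70.0 RPKM in WT-NS. Rgs5 made up most of these sums, whereas Pdgfrb, Cspg4, Kcnj8 and Des were at or near 0. Of the 4 mural markers tested, none passed the threshold in either genotype and 1 fell over both. The 6 red cell and platelet markers summed to 579 to 7174 RPKM in Cko-ST, 2202 to 15347 RPKM in Cko-NS, 1384 to 4305 RPKM in WT-ST and 3152 to 5571 RPKM in WT-NS, and 2 of the 4 tested fell over both genotypes. The microglia and macrophage markers summed to 0.617 to 1.29 RPKM in Cko-ST, 2.48 to 7.81 RPKM in Cko-NS, 0.206 to 1.71 RPKM in WT-ST and 0.677 to 80.7 RPKM in WT-NS, and 1 of the 2 tested fell in WT and over both genotypes. The neuron markers summed to 0.415 to 4.56 RPKM in Cko-ST, 4.09 to 38.2 RPKM in Cko-NS, 3.62 to 11.5 RPKM in WT-ST and 5.65 to 14.9 RPKM in WT-NS, and 1 of the 2 tested fell in Cko and over both genotypes. The choroid plexus and ependymal markers summed to 4.07 to 994 RPKM in Cko-ST, 82.5 to 1322 RPKM in Cko-NS, 15.4 to 596 RPKM in WT-ST and 289 to 474 RPKM in WT-NS, and the blood leukocyte markers to 4.79 to 19.5, 8.89 to 83.3, 2.06 to 42.6 and 0 to 7.91 RPKM in the same groups, with none called. Astrocyte and fibroblast markers summed to at most 17.5 and 2.08 RPKM in the stroke libraries, with none called. Of the 12 endothelial markers themselves, 2 rose and 5 fell in Cko, 3 rose and 2 fell in WT, and 3 rose and 4 fell over both genotypes. Beside all these counts, 8.71% of all genes tested fell and 15.2% were called in Cko. In WT 4.84% fell and 13.3% were called, and over both genotypes 14% fell and 26.9% were called. The part of the cell type markers in the stroke results was not tested.

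Fzd4 and Tspan12, the receptor of Norrin and its accessory tetraspanin, were not called in any stroke or genotype comparison. Fzd4 had 33.5, 32.9, 34.2 and 21.8 RPKM in Cko-ST, against 23.3, 18.9, 37.0 and 15.5 RPKM in Cko-NS. In WT-ST it had 23.6, 22.5, 27.3 and 23.1 RPKM, against 21.7, 26.9, 23.6 and 22.5 RPKM in WT-NS. The WT libraries lay within a narrow band, and the Cko libraries spread around it with overlap. The stroke effect on Fzd4 was 0.41 ± 0.23 in Cko (limma adjusted p = 0.255) and 0.03 ± 0.23 in WT with a 95% confidence interval of -0.46 to 0.51. Tspan12 had 64.7, 39.6, 45.2 and 46.9 RPKM in Cko-ST, against 31.5, 65.3, 47.7 and 29.1 RPKM in Cko-NS. In WT-ST it had 47.7, 63.9, 55.6 and 27.3 RPKM, against 72.6, 81.3, 80.5 and 42.0 RPKM in WT-NS. Replicate 4 was the lowest library of 3 of the Tspan12 groups, and the groups overlapped in every comparison. In the non-stroke hemisphere the Cko mean was 62.8% of the WT mean, a log2 difference of -0.69 ± 0.30 (limma adjusted p = 0.299). The stroke effect on Tspan12 was 0.23 ± 0.30 in Cko and -0.52 ± 0.30 in WT, and the difference of 0.74 ± 0.42 between them was not called (limma adjusted p = 0.754). Fzd4 lies on chromosome 7 from 89404355 to 89413134 (plus strand) and Tspan12 on chromosome 6 from 21771395 to 21852515 (minus strand).

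Fzd6, a Frizzled receptor best known in mice for planar cell polarity, was lower in the stroke hemisphere over both genotypes. It had 11.3, 8.82, 11.8 and 29.5 RPKM in Cko-ST, against 44.4, 21.8, 17.1 and 46.2 RPKM in Cko-NS. In WT-ST it had 12.1, 18.4, 9.56 and 7.54 RPKM, against 18.7, 33.6, 23.5 and 7.52 RPKM in WT-NS. The hemispheres overlapped in both genotypes, through Cko-ST 4 and WT-NS 4. Fzd6 fell by 0.86 on the log2 scale over both genotypes (SE 0.31, limma adjusted p = 0.0478), and differed by -1.06 ± 0.44 in Cko (limma adjusted p = 0.114) and -0.66 ± 0.44 in WT (limma adjusted p = 0.363). This call was lost in 11 of the 16 fits that left out 1 library each (adjusted p from 0.0108 to 0.103, lost without Cko-ST 1 to 3, WT-ST 1, 3 or 4, Cko-NS 1 or 4, or WT-NS 1 to 3), and without the 2 libraries of discordant gender (adjusted p = 0.134). Without Cko-ST 4, the highest Cko-ST library, the difference in Cko passed the threshold (-1.41, adjusted p = 0.0405). The 2 libraries with Y-linked RNA at a male level, Cko-NS 4 and Cko-ST 4, had the highest Fzd6 and the lowest Fzd4 of their groups. These 2 libraries share a number and may come from 1 animal, which the labels do not say. The pattern was noticed after the values were seen, and the part of sex in these levels was not tested. Fzd6 lies on chromosome 15 from 39006034 to 39038188 (plus strand).

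Lrp5 and Lrp6, the co-receptors shared by the Wnt7 and Norrin signals, both fell in the stroke hemisphere over both genotypes. Lrp6 had 7.98, 9.91, 12.1 and 8.55 RPKM in Cko-ST, against 16.5, 13.1, 11.1 and 15.0 RPKM in Cko-NS, with overlap through Cko-ST 3 and Cko-NS 3. In WT-ST it had 8.61, 8.54, 8.45 and 11.8 RPKM, against 18.1, 15.5, 13.8 and 14.1 RPKM in WT-NS, with no overlap. Lrp6 fell by 0.67 on the log2 scale in WT (SE 0.21, limma adjusted p = 0.0408) and by 0.58 over both genotypes (SE 0.15, limma adjusted p = 0.00665). The difference in Cko was -0.49 ± 0.21 (limma adjusted p = 0.121), and the 2 stroke effects differed by 0.18 ± 0.29 (limma adjusted p = 0.929). The WT call was lost in 9 of the 16 fits without 1 library (adjusted p from 0.0289 to 0.110, lost without Cko-ST 2, Cko-NS 2, WT-ST 1 to 3 or any WT-NS library), whereas the call over both genotypes was kept in all of them.

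Lrp5 was listed far lower than Lrp6 in the same libraries, with Lrp6 at 4.35 to 25.6 times Lrp5 per kilobase. It had 0.565, 1.37, 0.922 and 0.333 RPKM in Cko-ST, against 1.66, 3.02, 2.24 and 1.56 RPKM in Cko-NS. In WT-ST it had 0.541, 0.717, 0.971 and 0.821 RPKM, against 2.41, 0.668, 1.58 and 2.38 RPKM in WT-NS. The Cko hemispheres did not overlap, and the WT hemispheres overlapped through WT-NS 2. Over both genotypes Lrp5 fell by 0.70 on the log2(RPKM + 1) scale (SE 0.21, limma adjusted p = 0.0174). The difference was -0.81 ± 0.29 in Cko (limma adjusted p = 0.0723) and -0.60 ± 0.29 in WT (limma adjusted p = 0.200). Lrp5 rested on 24 to 179 reads per library, with a counting error of 20.4% at the lowest. Its mean over the stroke experiment, 1.36 RPKM, passed the filter of 1 RPKM only through the non-stroke groups. Those averaged 2.12 RPKM in Cko-NS and 1.76 RPKM in WT-NS, against 0.798 RPKM in Cko-ST and 0.763 RPKM in WT-ST. The call of Lrp5 is therefore a description and not independent of that filter. With limma voom on the recovered reads, which adds no RPKM pseudocount, the fall over both genotypes was 1.44 (SE 0.36, adjusted p = 0.00599) and that in Cko passed the threshold at 1.67 (SE 0.49, adjusted p = 0.0235). With labelled gender as a covariate the call over both genotypes was lost (limma adjusted p = 0.0631). As for Reck, that covariate splits the Cko-ST group and does not adjust for sex. Lrp6 lies on chromosome 6 from 134446476 to 134566965 and Lrp5 on chromosome 19 from 3584828 to 3686564, both on the minus strand.

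Ctnnb1, which encodes beta-catenin, varied least among the members. It had 2052, 1981, 1874 and 1948 RPKM in Cko-ST, against 2118, 1982, 2149 and 1927 RPKM in WT-ST. In Cko-NS it had 1629, 1997, 1502 and 1627 RPKM, against 2115, 2482, 2283 and 2196 RPKM in WT-NS. All 4 Cko-NS libraries were below all 4 WT-NS libraries, whereas the Cko-ST and WT-ST libraries overlapped. The Cko-NS mean was 74.4% of the WT-NS mean, a log2 difference of -0.43 ± 0.11 (limma adjusted p = 0.0926). The Cko and WT stroke effects on Ctnnb1 were 0.22 ± 0.11 and -0.15 ± 0.11, and their difference was 0.37 ± 0.16 (limma adjusted p = 0.681). These comparisons share the Cko-NS and WT-NS libraries, and none of them was called. With quantile normalization the non-stroke difference was -0.28 (adjusted p = 0.413). Ctnnb1 lies on chromosome 9 from 120929216 to 120960507 (plus strand), and 759 bases of its exons are shared with Ulk4 on the opposite strand, which was listed at 0 in 14 of the 16 stroke libraries and reached 0.865 RPKM.

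For stroke in Cko, 1 of the 8 members fell, namely Reck, and none rose, where 8.71% of all 9838 genes tested fell and 15.2% were called in either direction. In WT, 2 of 8 fell, namely Reck and Lrp6, where 4.84% of all genes fell and 13.3% were called. Over both genotypes 4 of 8 fell, namely Reck, Lrp6, Lrp5 and Fzd6, and none rose, where 14% of all genes fell and 26.9% were called. Of these, Lrp5 passed the filter on low values only through its non-stroke groups. The median log2 difference of the members was -0.54 in Cko, -0.56 in WT and -0.41 over both genotypes, beside medians over all genes tested of -0.13 in Cko, 0.01 in WT and -0.07 over both. Groups without overlap, with the stroke hemisphere lower, were found for Reck and Lrp5 in Cko, where 11.4% of all genes were so, and for Reck and Lrp6 in WT, where 8.7% were so. The interaction of genotype and stroke was called for 0 of 9838 genes by limma, with 691 genes at an unadjusted p under 0.05 and 0 genes by voom.

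**Figure D2:**
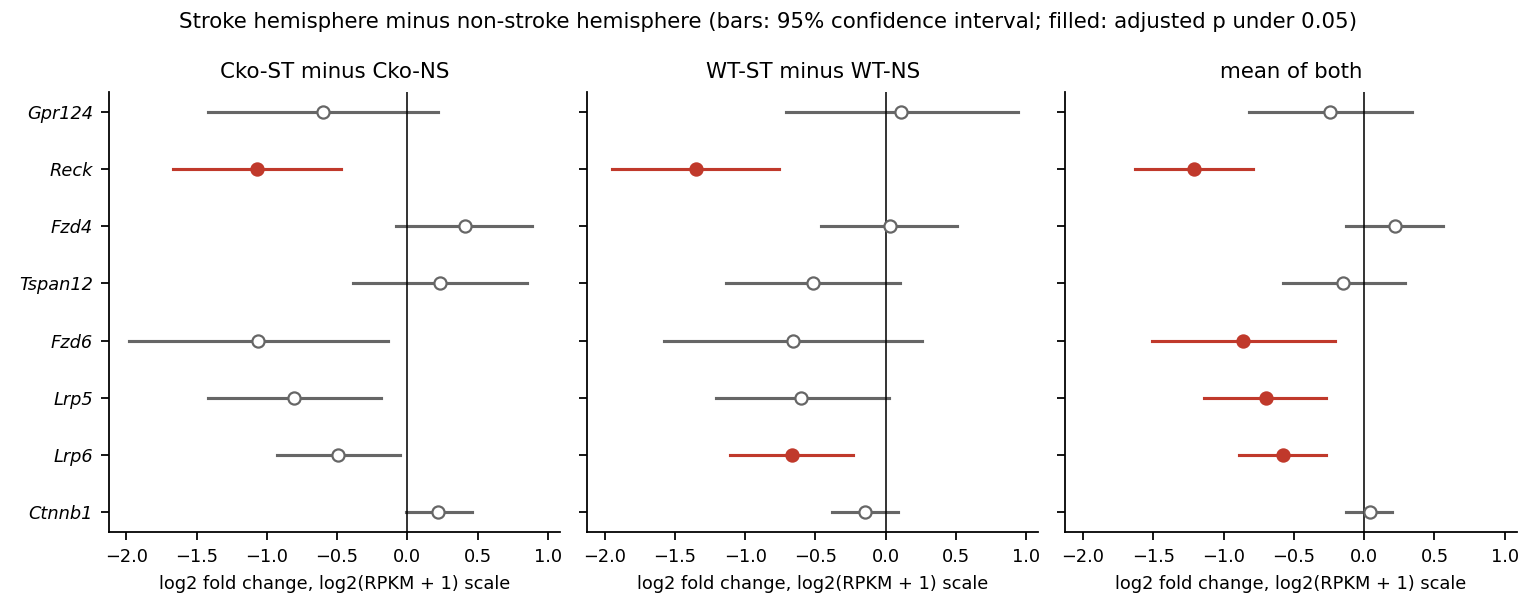
Log2 fold change (stroke minus non-stroke hemisphere, log2(RPKM + 1) scale) of each gene in Cko, in WT and as the mean of both; bars are 95% confidence intervals, and filled red points have an adjusted p under 0.05. Reck is filled in all panels, at -1.07, -1.35 and -1.21, Lrp6 in the WT panel and the last, and Lrp5 and Fzd6 in the last.

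Between genotypes none of the 8 members was called. In the stroke hemisphere limma called 0 of 9838 genes (0% of those tested), with 476 genes at an unadjusted p under 0.05 and 0 genes by voom on the recovered reads. In the non-stroke hemisphere 31 genes were called, 0.315% of those tested. Over both hemispheres, with every library counted as independent, 20 were called, or 0.203%. Gpr124 was the member with the largest genotype difference in the stroke hemisphere and ranked 52nd of all genes by p there. It was also the only member whose Cko-ST and WT-ST libraries did not overlap with Cko lower, which 1.86% of all genes did. In the non-stroke hemisphere Ctnnb1 was the only member to do so, beside 2.04% of all genes. The differences of the other members in the stroke hemisphere were between -0.06 and 0.31, with 95% confidence intervals that reached at most 1.18 for Fzd6 and 0.80 for Fzd4. The size of the Gpr124 difference in the stroke hemisphere depended on how low values were treated, at -2.01 ± 0.53 by voom on reads (adjusted p = 0.457), -1.79 with a pseudocount of 0.1 (adjusted p = 0.721) and -0.62 with a pseudocount of 5 (adjusted p = 0.985).

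**Figure D3:**
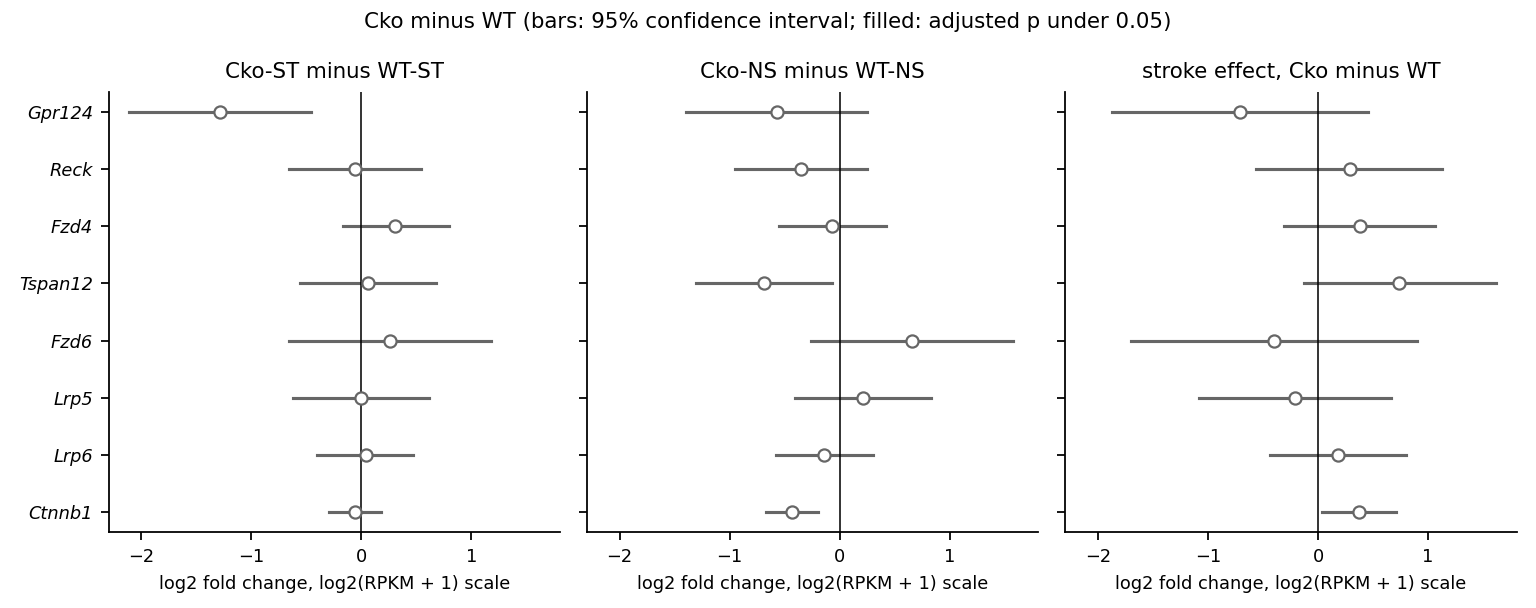
Log2 fold change of each gene for Cko minus WT in the stroke hemisphere and in the non-stroke hemisphere, and the difference between the stroke effects of Cko and WT; bars are 95% confidence intervals. No point is filled, since none has an adjusted p under 0.05; Gpr124 lies at -1.28 in the first panel and Ctnnb1 at -0.43 in the second.

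Between Bcat mice, with 1 lox(ex3) allele of Ctnnb1 and endothelial CreER, and Bcat-WT mice, none of the 8 members was called. Limma called 0 of 11252 genes (0% of those tested), with 590 genes at an unadjusted p under 0.05 and 0 genes by voom. Ctnnb1 had 244, 250 and 169 RPKM in Bcat, against 300 and 310 RPKM in Bcat-WT, a log2 difference of -0.48 ± 0.24 (limma adjusted p = 0.957). Lrp6 had 46.0, 50.8 and 43.8 RPKM in Bcat, against 33.4 and 41.0 RPKM in Bcat-WT, a log2 difference of 0.33 ± 0.26 (limma adjusted p = 0.969). These were the members whose groups did not overlap, 1 lower and 1 higher in Bcat, where 11.7% of all genes were lower and 8.66% higher without overlap. Whole-gene values cannot show whether exon 3 was removed, and the mutant allele is 1 of 2.

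The other members overlapped between Bcat and Bcat-WT. Gpr124 had 10.3, 14.0 and 17.3 RPKM in Bcat, against 16.5 and 15.3 RPKM in Bcat-WT. Reck had 55.5, 44.1 and 127 RPKM in Bcat, against 53.9 and 68.4 RPKM in Bcat-WT, so that 1 Bcat library stood high and the other 2 lay near the Bcat-WT values. Fzd4 had 71.3, 118 and 89.2 RPKM in Bcat, against 123 and 90.1 RPKM in Bcat-WT. Tspan12 had 38.9, 52.6 and 21.1 RPKM in Bcat, against 28.5 and 31.2 RPKM in Bcat-WT. Bcat 3, with the highest Reck, had the lowest Tspan12. Fzd6 had 73.8, 107 and 74.2 RPKM in Bcat, against 67.1 and 84.6 RPKM in Bcat-WT. Lrp5 had 18.8, 17.1 and 25.5 RPKM in Bcat, against 17.8 and 12.0 RPKM in Bcat-WT. The intervals were wide, for example -0.78 to 1.10 for the log2 difference of Reck and -1.04 to 0.62 for that of Gpr124. In these libraries all 8 members had at least 458 reads, Lrp6 was 1.72 to 3.41 times Lrp5, and Fzd4 was 0.967 to 1.83 times Fzd6 per kilobase.

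**Figure D4:**
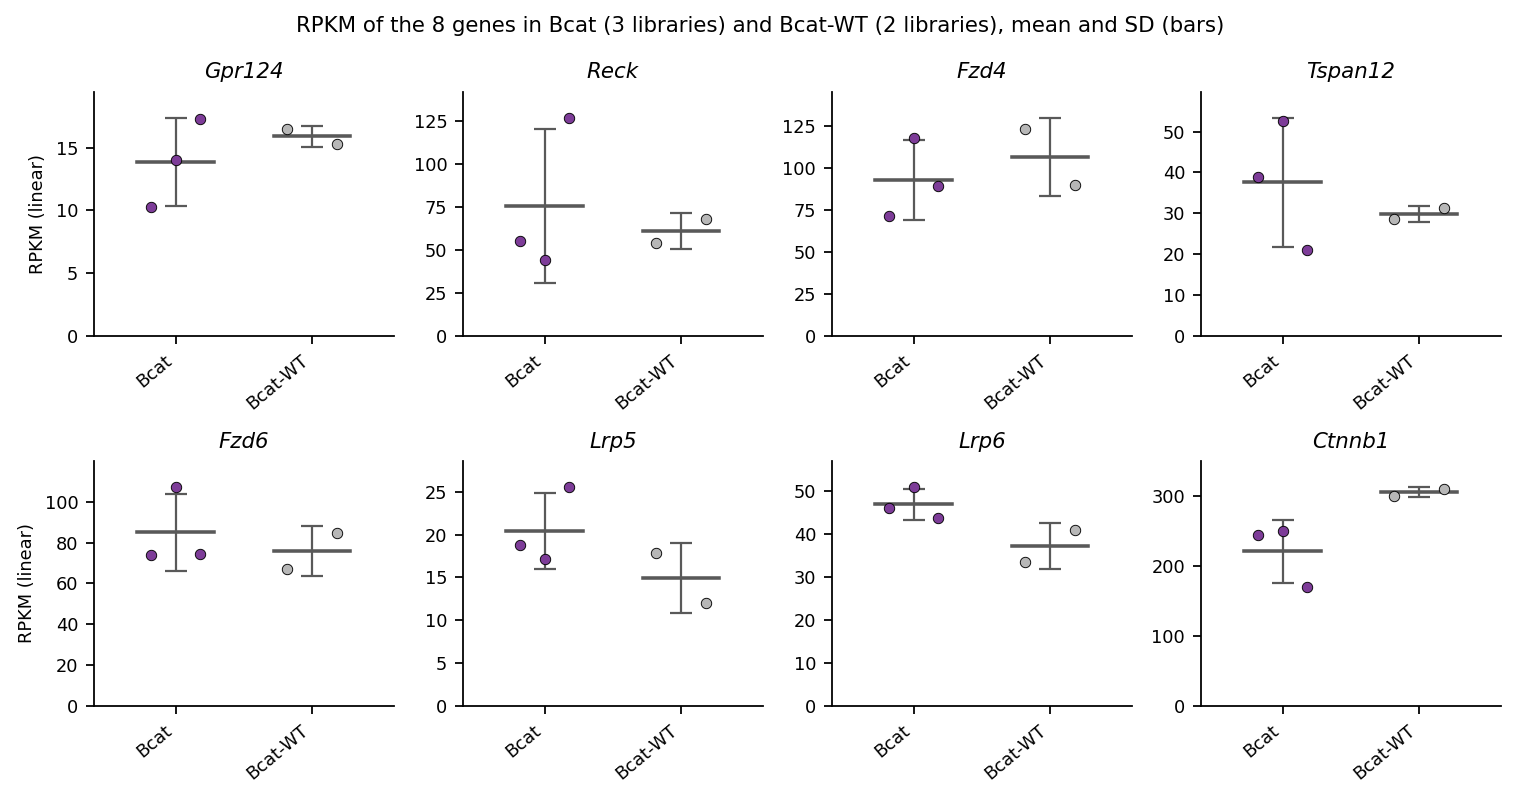
RPKM of each of the 8 genes (linear axis from 0) in Bcat (3 libraries) and Bcat-WT (2 libraries); points are libraries, wide bars the mean and error bars the SD. Ctnnb1 lies between 169 and 250 RPKM in Bcat and at 300 and 310 RPKM in Bcat-WT, and Lrp6 lies at 43.8 RPKM or more in Bcat and at 41.0 RPKM or less in Bcat-WT.

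The main ligands of these receptors were low in the sorted cells. Wnt7a and Wnt7b were listed at 0 in all 21 libraries, and Ndp, which encodes Norrin, reached at most 0.216 RPKM in the stroke libraries and 1.83 RPKM in Bcat, and was listed at 0 in both Bcat-WT libraries. Among the 20 Wnt and Norrin genes listed, only Wnt5a, a ligand known mainly for beta-catenin-independent signalling, was high enough to test in the stroke experiment. Wnt5a averaged 7.40 ± 3.67 RPKM in Cko-ST and 16.9 ± 8.58 RPKM in Cko-NS, and 14.5 ± 7.32 RPKM in WT-ST and 24.0 ± 4.55 RPKM in WT-NS (SD, n = 4 each). It fell by 0.90 over both genotypes (SE 0.30, limma adjusted p = 0.0312) and was called in neither genotype alone (limma adjusted p = 0.120 in Cko and 0.229 in WT). Of the 6 other Frizzled and Wnt co-receptor genes tested, 1 fell and none rose over both genotypes. Among all genes tested, 14% fell and 26.9% were called there. The gene that fell was Lgr4, a receptor of R-spondins, at -0.84 ± 0.21 (limma adjusted p = 0.00665). Lgr4 passed the threshold in Cko (limma adjusted p = 0.0309) and not in WT (limma adjusted p = 0.154).

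Axin2 and Notum, feedback genes that beta-catenin and TCF are known to induce, both fell in the stroke hemisphere. Not all Wnt inhibitors of the same lists did so. Nkd1, Apcdd1 and Znrf3 differed by -0.06, -0.22 and -0.54 over both genotypes and were not called (limma adjusted p = 0.848, 0.584 and 0.123). Axin2, a scaffold of the destruction complex, averaged 0.249 ± 0.151 RPKM in Cko-ST and 2.66 ± 0.246 RPKM in Cko-NS, and 1.04 ± 0.347 RPKM in WT-ST and 4.59 ± 1.49 RPKM in WT-NS (SD, n = 4 each). It fell by 1.49 over both genotypes (SE 0.18, limma adjusted p = 1.08e-05). Notum, a secreted enzyme that inactivates Wnt ligands, fell by 1.83 (SE 0.24, limma adjusted p = 1.98e-05) and was the only one of the 4 tested turnover and inhibitor genes to be called. Dixdc1, which binds Dishevelled, fell by 2.35 (SE 0.22, limma adjusted p = 4.26e-07), averaging 2.30 ± 1.25 RPKM in Cko-ST and 13.3 ± 2.10 RPKM in Cko-NS, and 2.75 ± 0.850 RPKM in WT-ST and 19.8 ± 3.45 RPKM in WT-NS (SD, n = 4 each). Of the 16 relay and destruction complex genes tested, 3 fell and none rose over both genotypes, with a median of -0.20. The third was Tnks2 (-0.38 ± 0.10, limma adjusted p = 0.00780), whose product marks AXIN proteins for degradation. Tnks2 passed the threshold in WT (limma adjusted p = 0.0432) and not in Cko (limma adjusted p = 0.138). Beside the counts of this paragraph, 14% of all genes tested fell and 26.9% were called over both genotypes.

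Among the 9 nuclear partners of beta-catenin tested, 3 fell and 1 rose over both genotypes, with a median of -0.43. The transcription factors Tcf7 and Lef1 fell by 1.15 (SE 0.19, limma adjusted p = 1.66e-04) and 0.76 (SE 0.11, limma adjusted p = 6.43e-05). Lef1 averaged 736 ± 155 RPKM in Cko-ST and 1250 ± 120 RPKM in Cko-NS, and 755 ± 60.1 RPKM in WT-ST and 1262 ± 205 RPKM in WT-NS (SD, n = 4 each). The co-repressor Tle1 fell by 0.82 (SE 0.18, limma adjusted p = 0.00277), whereas the co-repressor Tle3 rose by 0.70 (SE 0.16, limma adjusted p = 0.00276). Within single genotypes, Tle1 was not called in Cko (limma adjusted p = 0.0739) and Tle3 was not called in WT (limma adjusted p = 0.0558). Beta-catenin also links cadherins to alpha-catenin at cell junctions, and there 2 of 6 genes rose and none fell. Cdh5, the endothelial cadherin, averaged 494 ± 97.3 RPKM in Cko-ST and 291 ± 39.3 RPKM in Cko-NS, and 402 ± 48.4 RPKM in WT-ST and 243 ± 23.1 RPKM in WT-NS (SD, n = 4 each), a rise of 0.74 ± 0.11 (limma adjusted p = 1.04e-04). Ctnna1, which encodes alpha-catenin, rose by 0.47 (SE 0.12, limma adjusted p = 0.00699), and was not called in Cko alone (limma adjusted p = 0.127). The background for these counts is that 14% of all genes fell, 1272 of 9838 genes rose and 26.9% were called in the same comparison.

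**Figure D5:**
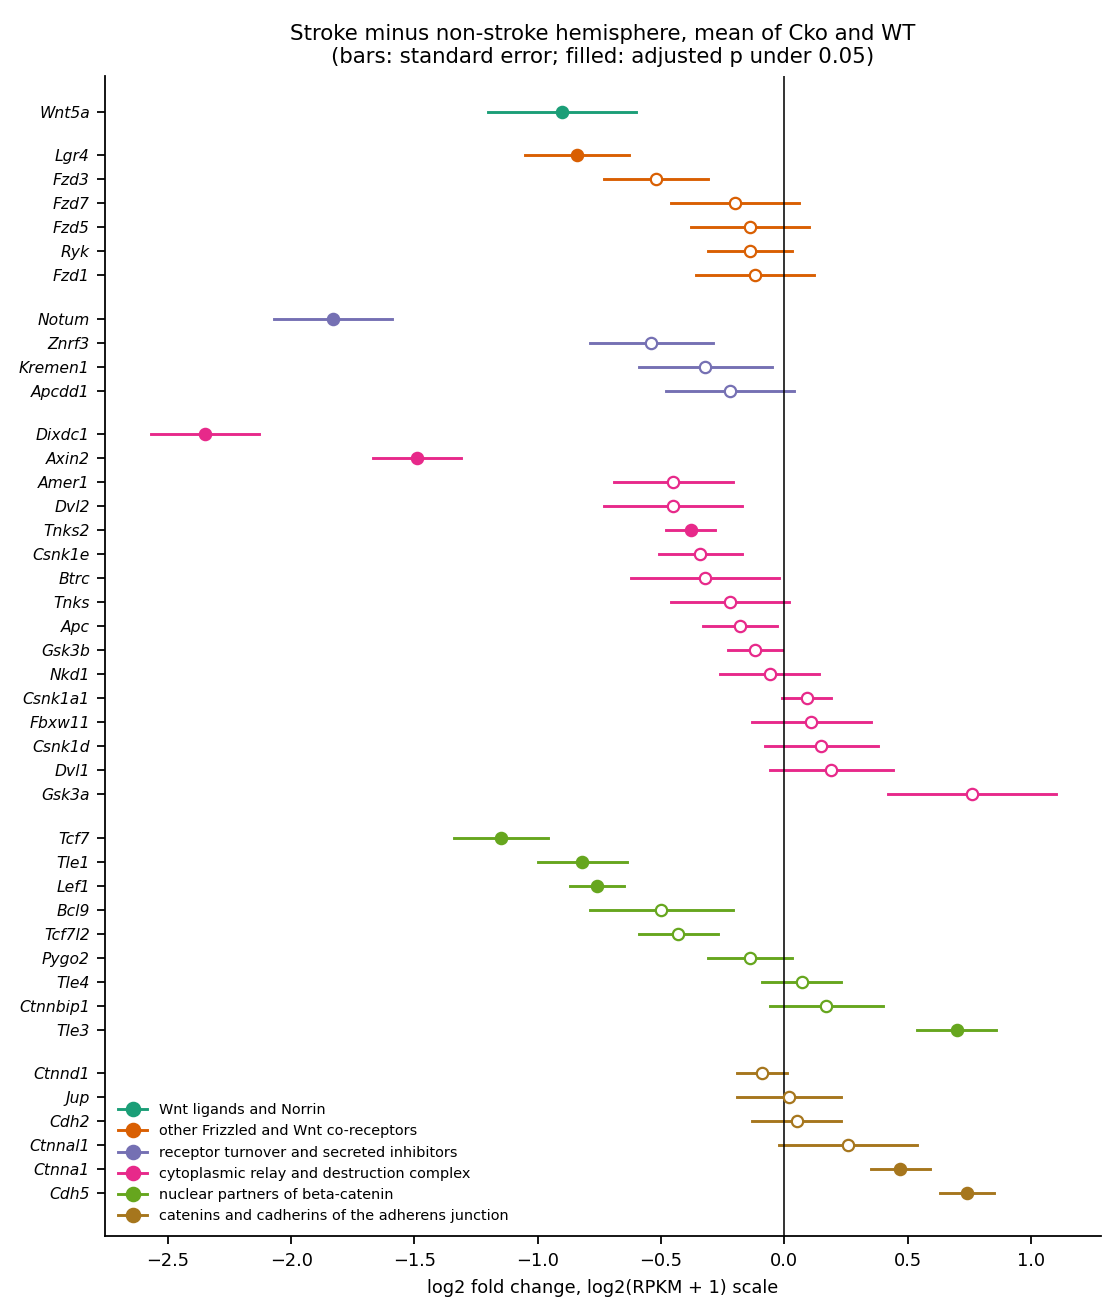
Log2 fold change (stroke minus non-stroke hemisphere, mean of Cko and WT, log2(RPKM + 1) scale) of every tested gene of 6 Wnt pathway lists, grouped by colour; bars are standard errors and filled points have an adjusted p under 0.05. Dixdc1, Notum and Axin2 lie furthest to the left, at -2.35, -1.83 and -1.49, and Cdh5, Tle3 and Ctnna1 are the filled points to the right of 0.

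In the genotype comparisons none of these pathway genes was called. Axin2 differed by -0.70 ± 0.26 in the stroke hemisphere (limma adjusted p = 0.994). There the Cko-ST libraries lay between 0.0716 and 0.409 RPKM and the WT-ST libraries between 0.717 and 1.43 RPKM. Groups without overlap and with Cko lower were seen for 1.86% of all genes, and all Cko-ST values of Axin2 were near 0. In the non-stroke hemisphere Axin2 differed by -0.57 ± 0.26 (limma adjusted p = 0.329). Over both hemispheres, with every library counted as independent, it differed by -0.64 ± 0.18 (limma adjusted p = 0.167). Lef1 differed by -0.06 ± 0.16 and -0.01 ± 0.16, and Cdh5 by 0.28 ± 0.16 and 0.25 ± 0.16, in the stroke and the non-stroke hemisphere. Ctnnd1, which encodes the cadherin-binding p120 catenin, averaged 43.9 ± 4.47 RPKM in Cko-NS and 68.2 ± 8.70 RPKM in WT-NS (SD, n = 4 each), a difference of -0.62 ± 0.15 (limma adjusted p = 0.0640). Lgr4, Ryk, Znrf3, Notum, Csnk1a1, Tnks2, Tcf7l2 and Wnt5a differed by -0.83 (Wnt5a) to 0.25 (Lgr4) in the stroke hemisphere and by -0.65 (Wnt5a) to 0.57 (Lgr4) in the non-stroke hemisphere.

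In the Bcat experiment no pathway gene was called, and some had separate groups while others overlapped. Besides Axin2, Lef1 and Cdh5, the genes named here are those with the highest means of each list. They were not chosen by the size of the difference, and unnamed genes can differ by more. Axin2 lay between 44.2 and 54.5 RPKM in Bcat and between 26.3 and 28.3 RPKM in Bcat-WT, a difference of 0.80 ± 0.26 (limma adjusted p = 0.901). Apcdd1, a membrane-bound inhibitor of Wnt signalling, lay between 98.2 and 161 RPKM in Bcat and between 53.6 and 59.3 RPKM in Bcat-WT, a difference of 1.06 ± 0.27 (limma adjusted p = 0.769). Wnt5a lay between 26.4 and 49.0 RPKM in Bcat and between 1.49 and 10.3 RPKM in Bcat-WT, a difference of 2.77 ± 0.60 (limma adjusted p = 0.649). Znrf3, a ubiquitin ligase that removes Frizzled receptors, lay between 13.9 and 15.0 RPKM in Bcat and between 3.70 and 9.69 RPKM in Bcat-WT, a difference of 1.13 ± 0.45 (limma adjusted p = 0.911). Gsk3b, a kinase of the destruction complex, also had separate groups, with a difference of 0.44 ± 0.25 (limma adjusted p = 0.966). Lef1 lay between 73.8 and 93.2 RPKM in Bcat and between 100 and 152 RPKM in Bcat-WT, a difference of -0.56 ± 0.26 (limma adjusted p = 0.957). The groups overlapped for Cdh5, at 122 to 218 RPKM in Bcat and 204 to 251 RPKM in Bcat-WT (-0.36 ± 0.29, limma adjusted p = 0.969), and for Ctnna1, Wnt4, Ryk, Fzd3, Csnk1a1 and Tcf7, with differences from -0.49 (Ctnna1) to 0.21 (Ryk). Groups without overlap in either direction were seen for 20.4% of all genes. The 9 mural markers summed to 34.4 to 89.3 RPKM in Bcat and 33.7 to 35.0 RPKM in Bcat-WT, and the red cell and platelet markers to 8230 to 17130 RPKM in Bcat and 7679 to 8092 RPKM in Bcat-WT, with no marker called; their part in these values was not tested.

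Across the 16 stroke libraries, which share the 4 groups and the stroke contrast, the members did not vary as 1 unit. Reck followed Lrp6 (Pearson r = 0.70) and Lrp5 (r = 0.62) and had r = 0.04 with Gpr124, all on log2(RPKM + 1) and as descriptions. After each group's mean was taken out, r was -0.06 between Reck and Lrp6, 0.05 between Reck and Lrp5 and -0.47 between Reck and Gpr124. Tspan12 and Ctnnb1 had r = 0.64 over all 16 libraries and 0.52 after the group means were taken out. The r furthest from 0 after the group means were taken out was -0.76, between Fzd6 and Lrp5, which had r = 0.08 over all 16 libraries. Among 3880 other genes with a mean of at least 10 RPKM, those most like Reck were Rnase4 (r = 0.899), Ebf1 (r = 0.890) and Arl4a (r = 0.889). Those most like Lrp6 were St6galnac3 (r = 0.880), Srrm1 (r = 0.867) and Rora (r = 0.863), and those most like Fzd6 were Fbxo9 (r = 0.883), B3gat3 (r = 0.857) and Ctdsp1 (r = 0.811). Tspan12 was most like Cav1 (r = 0.847), Lbr (r = 0.833) and Cav2 (r = 0.828), and Cav2 was also among the 3 genes most like Ctnnb1 (r = 0.738). For Gpr124 the highest was Phactr4 (r = 0.691), for Fzd4 Kdsr (r = 0.777) and for Lrp5 Chchd7 (r = 0.824).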

How the data were processed

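The deposited table gives RPKM per gene for each library, computed by the authors. Of tools and builds, edgeR and mm10 are listed in the submitters' processing notes, and no source used here gives the aligner, the annotation or the use of strand. Of 24260 rows, 54 that share a name were left out, and 8 columns of no sample described here were not used. RPKM values of low genes move in steps of 1 base of coverage, which gave the depth of each library (read length 50 bases in the stroke libraries and 101 in the Bcat experiment); whole bases were found for 9874 of 9874 and 11261 of 11280 genes with a mean of at least 1 RPKM, within a tolerance of 0.01 and 0.005. Reads given per gene are bases divided by read length, and their counting error covers counting only.

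Tests used limma 3.58.1 (R 4.3.3) on log2(RPKM + 1), two-sided, with a mean-variance trend and Benjamini-Hochberg adjustment over all genes whose mean in that fit reached 1 RPKM, at a threshold of 0.05. The 16 stroke libraries were fitted together with 4 group means, and the 5 libraries of the Bcat experiment apart. Xist and Y-linked genes were left out of the tests. The values of 1 list of cell type markers are not reported here. The fits were run on simulated data for stroke in WT and for Bcat. A minimum recovery of changes was required for stroke in WT only, so the lack of calls in Bcat has no such check behind it. Replicate numbers were not treated as pairs. The members and gene lists were chosen with earlier results of these data known. Pathway genes were named by rule, as up to 4 called genes per list and comparison with the lowest p, or, where none was called, up to 2 with the highest mean; Axin2, Lef1 and Cdh5 always. For the stroke comparison, Nkd1, Apcdd1 and Znrf3 were named outside that rule. Gene positions come from GENCODE M21 (GRCm38). Other settings tried were the pseudocount, the filter, scaling, the trend, a replicate block, gender, leaving out libraries and voom on the recovered reads. Tables and figures were made with Python 3.11.15.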

Additional observations from a re-analysis of the deposited data

Results flagged for a closer look

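In 4 of the 32 sets of 4 stroke libraries, 1 gene in 1 group each, a single library lay far from the other 3 by Dixon's test (critical value 0.829); chance alone flags about 1 in 20 such sets. Gpr124 was 0.500 RPKM in Cko-ST 1, below 1.52 to 1.72 RPKM in the other Cko-ST libraries. Fzd4 was 21.8 RPKM in Cko-ST 4, below 32.9 to 34.2 RPKM in the others. Fzd6 was 29.5 RPKM in the same library, Cko-ST 4, above 8.82 to 11.8 RPKM in the others, and without it the stroke effect on Fzd6 in Cko was -1.41 (limma adjusted p = 0.0405). Lrp6 was 11.8 RPKM in WT-ST 4, above 8.45 to 8.61 RPKM in the others.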

How the results depend on the processing

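The fall of Reck over both genotypes and in WT kept its call under every setting tried, from -1.30 to -1.11 and from -1.52 to -1.16 when 1 library was left out. Of 1641 recomputed values of the 8 genes, 1606 stayed on the same side of the threshold, 31 lost a call and 4 gained one; 43 changed sign, none of them called in either fit.

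Genes called for Cko in the non-stroke hemisphere (31) became 19 with no filter, 84 with a mean of at least 5 RPKM, 12 without the trend, 18 with labelled gender as a covariate, 2 with only the 2 groups compared and 19 by voom, which was chosen after seeing the data. Those for Cko over both hemispheres (20) became 0, 43, 0, 11 and 35 under no filter, a mean of at least 5 RPKM, no trend, gender and voom. Genes called for stroke in Cko (1491) became 993 with gender. Only Cko-ST 3 and Cko-ST 4 of the stroke libraries were labelled male, so the gender setting splits the Cko-ST group and does not adjust for sex. Members called for stroke in WT (2) became 1 with only the 2 groups compared, and for stroke in Cko (1) they became 2 without the trend, 0 with gender and 2 by voom.

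When 1 library was left out, genes called ranged from 993 to 1472 for stroke in WT (1308), 1044 to 1552 for stroke in Cko, 1 (without WT-NS 4) to 54 (without Cko-ST 4) for Cko in the non-stroke hemisphere, 0 to 8 (without WT-ST 3) for Cko in the stroke hemisphere, and 7 (without WT-ST 1, WT-ST 2, Cko-NS 3 or WT-NS 4) to 48 (without Cko-NS 4) for Cko over both hemispheres. Members called ranged from 1 to 2 for stroke in WT, from 0 (without Cko-NS 1) to 2 (without Cko-ST 4) for stroke in Cko, and from 3 to 4 over both genotypes.

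Labels do not tie libraries of the same number to 1 animal, and the deviations of same-numbered hemispheres correlated by 0.01 to 0.21. Every library except those numbered 4 in WT correlated best with its own number. Cko-ST 4 and Cko-NS 4, the only stroke libraries with Y-linked RNA at a male level, also share a number. These are hints from the data and not the design. With the replicate number as a block, genes called for Cko became 60 in the non-stroke hemisphere and 55 over both, and members called became 1 for stroke in WT (Lrp6 adjusted p = 0.0883) and 2 for stroke in Cko (Fzd6 adjusted p = 0.0205).

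The fall of Fzd6 over both genotypes was also lost with no filter (adjusted p = 0.111), median-of-ratios scaling (0.0663), quantile normalization (0.0572), no trend (0.0601) and voom (0.104). That of Lrp6 in WT was lost with only the 2 groups compared (0.0592). Lrp5 in Cko passed without the trend (0.0470) and by voom. The cause of these changes was not tested. A filter at 5 RPKM left no value for Gpr124 and Lrp5 in the stroke experiment. Depth limits Gpr124 and Lrp5 most, at 38.1 and 24 reads in their lowest stroke libraries.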
